A study of Homo sapiens with 8 samples.

Results

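Claudins and the other genes of the tight junction were examined in RKO, a human colon carcinoma line kept in culture. The set holds 9 of the 57992 genes counted in each library. It comprises 6 claudins (CLDN1, CLDN3, CLDN4, CLDN7, CLDN12 and CLDN15), occludin (OCLN), the scaffold ZO-1 (TJP1) and junctional adhesion molecule A (F11R). The genes were listed by name with earlier results of this comparison known, among them the change of CLDN12, so their levels, fold changes and calls are given as a description, and nothing is supported with them. RKO cells were treated with control siRNA in 4 samples and with siRNA against A20, the ubiquitin-editing enzyme encoded by TNFAIP3, in the other 4. All 8 samples also received recombinant wnt3a at 50 ng/mL for 24 hours, so no unstimulated cells are part of the comparison. The sources used here do not say whether the replicates, numbered 1 to 4 in each group, were separate experiments, and the spread between them may be technical.

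Tight junctions seal the space between neighbouring epithelial cells. Claudins are small membrane proteins with 4 transmembrane segments that form the paracellular strands, and the mixture of claudins a cell makes sets which ions pass. OCLN sits in the same strands, F11R adheres to its counterpart on the next cell, and TJP1 binds the tails of many of these proteins from the cytoplasm and ties them to actin. In the intestinal lining, CLDN1, CLDN3, CLDN4 and CLDN7 are regarded as sealing claudins, CLDN15 forms cation pores, and CLDN12 is an atypical member that lacks the usual PDZ-binding tail. A20 has been linked to this structure in the gut, where it was described to act on occludin.

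Transcript levels of single genes are given as CPM, read counts brought to a common scale with TMM factors. Total counts were between 21226451 and 34194273 per library. At that depth 3 counts correspond to between 0.0875 and 0.141 CPM in a single library, which was taken as the detection limit and covers counting error only. TNFAIP3 itself had 5.47 ± 0.388 CPM in the controls and 3.33 ± 0.215 CPM after A20 siRNA (SD, n = 4 per group), so 60.8% of the control level remained (p = 0.0286 by a two-sided exact permutation test, which with 4 against 4 cannot go lower). Control replicate 1 and A20 siRNA replicate 2 stood apart from their groups in how deviations followed exonic length, with Spearman's rho across genes of 0.079 against -0.200 to -0.111 in the other controls, and of -0.082 against 0.069 to 0.178 in the other A20 siRNA libraries. Fold changes are also given without these 2 libraries. All remaining controls then had a negative rho and all remaining A20 siRNA libraries a positive one. In that comparison the length trend and the group cannot be told apart, so it is no check against the trend. Of 5 epithelial markers EPCAM, KRT8 and KRT18 passed the expression filter, while CDH1 and KRT19 had no count in any library. Of 8 colonic markers only CDX2 passed, and CDX1, KRT20, LGR5 and MUC2 had no count. Much of what marks colonic epithelium was thus not detectable at this depth in the cells labelled as a colon cancer line. None of the 16 fibroblast, endothelial and leukocyte markers passed, and the summed level of each of these 3 lists (the endothelial one shares CLDN5 with the claudins) stayed at or under 0.143 CPM in every library.

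The 9 genes fell into 5 that were transcribed at measurable levels and 4 that were close to the limit of detection. CLDN12, CLDN15, OCLN, TJP1 and F11R passed the expression filter, which asks for about 10 counts in at least 4 libraries. CLDN1, CLDN3, CLDN4 and CLDN7, the sealing claudins of the gut, did not. The promoter sequences of CLDN12, the most abundant claudin of these cells, and of CLDN3 and CLDN7 from the group near the detection limit are shown here for comparison, 5′ to 3′ on the strand of the gene, from 250 bases before to 50 bases after an annotated start (RefSeq, GRCh38.p14). Capitals mark the E-box letters CAGGTG or their reverse complement CACCTG, to which the repressors ZEB1 and SNAI1 are known to bind. The motif was chosen after the levels were known. From the group near the detection limit, the windows shown are the ones with a match, so they do not represent that group.
CLDN12 (chr7:90403211-90403510, plus strand): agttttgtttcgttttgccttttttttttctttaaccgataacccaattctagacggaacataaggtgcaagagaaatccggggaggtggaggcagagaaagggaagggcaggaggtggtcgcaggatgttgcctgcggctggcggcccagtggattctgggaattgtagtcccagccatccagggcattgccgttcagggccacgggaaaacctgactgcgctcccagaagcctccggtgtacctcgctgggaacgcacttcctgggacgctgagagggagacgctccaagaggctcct
CLDN3 (chr7:73770221-73770520, minus strand): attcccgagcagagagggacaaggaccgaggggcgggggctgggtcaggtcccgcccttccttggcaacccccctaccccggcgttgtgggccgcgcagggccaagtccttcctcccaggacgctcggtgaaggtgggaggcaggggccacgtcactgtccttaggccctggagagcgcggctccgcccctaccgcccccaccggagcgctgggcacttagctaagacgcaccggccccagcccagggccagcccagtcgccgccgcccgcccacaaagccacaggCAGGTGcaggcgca
CLDN7 (chr17:7262429-7262728, minus strand): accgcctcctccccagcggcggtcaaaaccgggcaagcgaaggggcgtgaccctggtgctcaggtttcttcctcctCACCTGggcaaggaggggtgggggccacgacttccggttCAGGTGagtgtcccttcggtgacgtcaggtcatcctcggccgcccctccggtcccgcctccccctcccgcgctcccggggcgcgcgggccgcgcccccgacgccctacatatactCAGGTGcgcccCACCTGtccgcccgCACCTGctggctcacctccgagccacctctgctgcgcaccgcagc

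The CLDN12 window held no match. The CLDN3 window held 1 match, 36 bases after the start. The CLDN7 window held 5 matches, whose first bases lay at -174, -135, -20, -9 and 5 relative to the start. Across the 35116 RefSeq windows of 300 bases, 20.6% held at least 1 match and 0.0940% held 5 or more. The cutoff of 5 was taken from the CLDN7 window shown, so that share is not a test. The other CLDN7 window, not shown, held no match. RefSeq gave windows for 8 of the 9 genes, and 5 of their 13 windows had a match. These were 1 of 2 windows of CLDN7, the window of CLDN3, both windows of OCLN and 1 of 4 windows of TJP1, while CLDN1 and CLDN4, also near the detection limit, had none. A match is a description of the letters and not a measurement of binding, and windows with and without a match occurred among genes of either level.

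CLDN1 was the least detected of the 9 (chromosome 3, 190305707 to 190322446, GRCh38). Its reads numbered 0, 1, 0 and 0 in control replicates 1 to 4 and 1, 1, 1 and 0 with A20 siRNA. CLDN3 (chromosome 7, 73768997 to 73770270) had 6, 3, 1 and 5 reads with control siRNA and 3, 4, 3 and 3 with A20 siRNA. Its neighbour CLDN4 (chromosome 7, 73799542 to 73832690) had 2, 3, 1 and 2 reads in the controls and 4, 4, 3 and 3 after A20 siRNA. For CLDN4, 3 of the 4 A20 siRNA libraries lay above every control in CPM, but the groups overlapped. These 3 genes stayed near the 3-count limit in both groups, and no fold change is given for them. CLDN7 (chromosome 17, 7259903 to 7263983), which in normal gut binds EPCAM, reached 6, 4, 4 and 8 reads with control siRNA and 6, 10, 2 and 5 with A20 siRNA. Pooled over the 4 libraries of a group this was 0.209 CPM (95% exact Poisson interval 0.131 to 0.317) in the controls and 0.213 CPM (0.135 to 0.320) after A20 siRNA, and the values of the groups overlapped. A change of these sealing claudins was thus not detectable at this depth, and changes of CLDN7 of a size within those intervals could have been missed. CLDN1, CLDN3 and CLDN4 had fewer reads, so larger relative changes of these could have been missed. For CLDN4 the pooled level was 0.0761 CPM (95% exact Poisson interval 0.0328 to 0.150) in the controls and 0.130 CPM (0.0709 to 0.218) after A20 siRNA.

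CLDN12 carried most of the claudin transcript in RKO (chromosome 7, 90383721 to 90513402). Expressed per kilobase of exon, so that genes can be compared, its level was 12.5 ± 0.219 CPM per kb in the controls and 14.0 ± 0.259 CPM per kb after A20 siRNA (SD, n = 4 per group). Averaged over the 8 libraries it stood at 13.2 CPM per kb, higher than 73.2% of all tested genes. Over all 24 claudin genes, CLDN12 made up 80.1% ± 1.23 of the summed level per length in the controls and 79.8% ± 0.333 after A20 siRNA (SD, n = 4 per group). CLDN15 followed with 11.1% ± 0.830 and 12.1% ± 0.497, and CLDN23 with 5.39% ± 1.08 and 4.80% ± 0.310 (SD, n = 4 per group). With the longest transcript in place of all exons as the length, the share of CLDN12 lay between 85.4% and 87.4% in the 8 libraries. The remaining 21 claudins did not pass the filter, and 9 of them (CLDN8, CLDN9, CLDN10, CLDN14, CLDN16, CLDN17, CLDN19, CLDN22 and CLDN25) had no count in any library. A count of 0 allows up to 0.0141 CPM over all libraries together, but it sets no limit for CLDN22, whose 2177 exonic bases all lie within exons of WWC2 on the opposite strand, and for CLDN10 it covers only the exonic bases not among the 1558 of 3385 shared with DZIP1. No untested claudin exceeded 10 reads in a library. The claudin repertoire of these cells was accordingly narrow, with 1 dominant member and 2 minor ones.

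**Figure D1:**
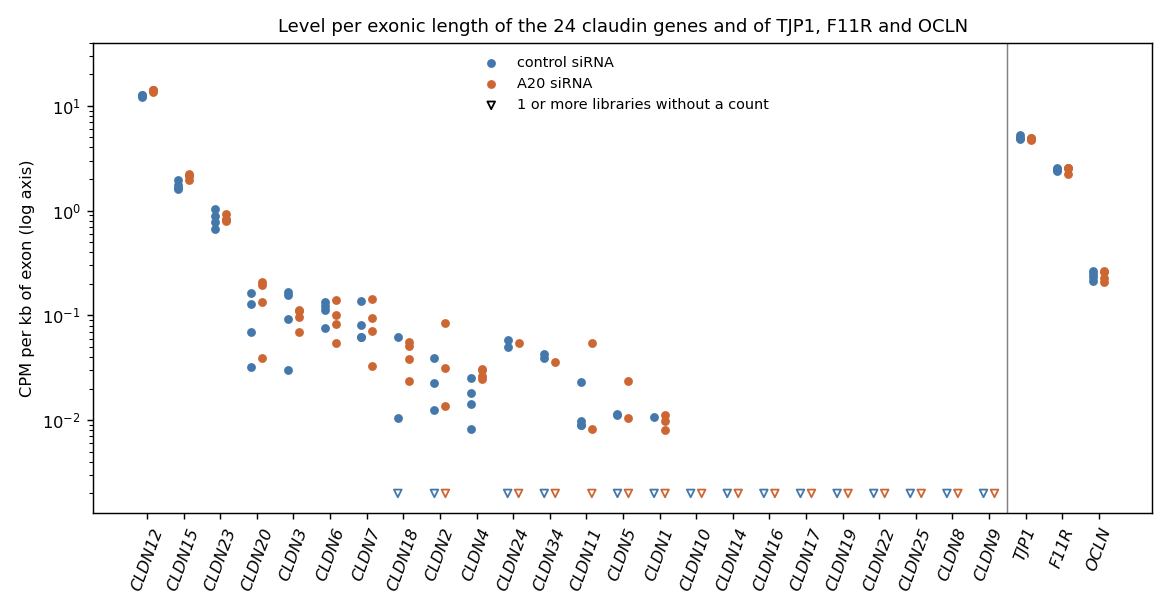
Level of the 24 claudin genes and, right of the line, of TJP1, F11R and OCLN, in CPM per kilobase of exon on a log axis, 1 point per library (blue, control siRNA; orange, A20 siRNA; open triangles, genes with libraries without a count). CLDN12 lies near 13.2 CPM per kb and CLDN15 near 1.93, and 21 of the claudins lie below the expression filter.

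The order of the 9 genes by level per length was CLDN12, TJP1, F11R, CLDN15, OCLN, CLDN3, CLDN7, CLDN4 and CLDN1. TJP1 averaged 4.93 CPM per kb over the 8 libraries, F11R 2.47, CLDN15 1.93 and OCLN 0.240. Each of these exceeded the next in every library, with CLDN12 at 2.68 times the level of TJP1 and CLDN15 at 8.05 times that of OCLN. OCLN was therefore the scarcest of the transcribed members, above only 6.93% of tested genes on the same scale. Its rank and the ratio to it rest on its unique count, which is uncertain because the pseudogene copy OCLNP1 may share reads. CLDN3 (0.104 CPM per kb) and CLDN7 (0.0852 CPM per kb) overlapped in their ranges. So did CLDN4 (0.0221 CPM per kb) and CLDN1 (0.00500 CPM per kb), and neither pair can be put in order. CLDN3 and CLDN4 overlapped as well, with the lowest CLDN3 library at 0.0303 and the highest CLDN4 library at 0.0305 CPM per kb. CLDN7 cleared CLDN4 only narrowly, at 0.0329 in its lowest library. The order of these genes near the detection limit is thus not settled. With the longest transcript as the length, CLDN15 (2.62 CPM per kb) and F11R (2.62 CPM per kb) came to lie level, and their order is not settled either.

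The values of these genes after A20 siRNA were then taken from the fit across all 13412 tested genes (quasi-likelihood test of edgeR, adjusted after Benjamini and Hochberg). Of the 5 members that passed the filter, 1, CLDN12, was called at an adjusted p-value under 0.05 and was higher after A20 siRNA. Of all tested genes 1.25% were called, 0.634% higher and 0.611% lower. Since that change is part of why the set was drawn up, nothing is read from the count. The values of CLDN12 and CLDN15 did not overlap between the groups, both being higher after A20 siRNA. This held for 7.61% of all tested genes, 3.71% in the higher direction, and 51.6% of them had a positive log2 fold change. The groups of OCLN, TJP1 and F11R overlapped. The median log2 fold change of the 5 was 8.54e-05, and that of all tested genes 0.00255. In bulk RNA such as this, fewer cells expressing a gene and less RNA per cell cannot be told apart.

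**Figure D2:**
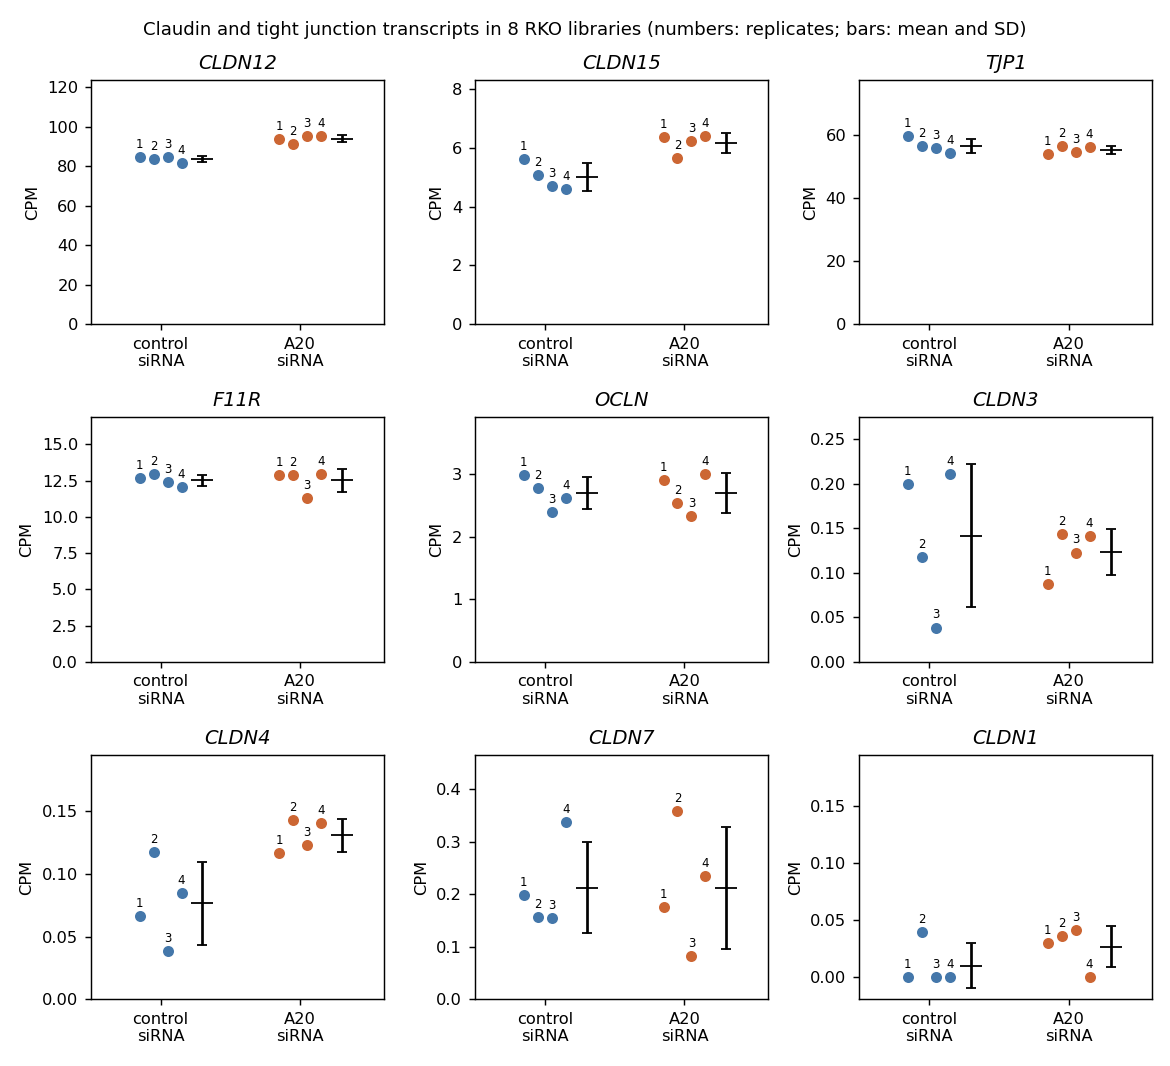
CPM of the 9 genes in each library, with control siRNA in blue and A20 siRNA in orange, replicate numbers above the points, and the mean with SD in black, each panel on its own axis. For CLDN12 the 4 A20 siRNA libraries sit between 91.4 and 95.2 CPM, above every control, whereas for OCLN, TJP1 and F11R the groups share their range.

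CLDN12 was covered by 1932 to 3223 reads per library. Its level was 84.9, 83.5, 84.7 and 81.7 CPM in control replicates 1 to 4, against 94.0, 91.4, 95.1 and 95.2 CPM after A20 siRNA. All 4 A20 siRNA libraries were above all 4 controls, and within each group the replicates were close. The means were 83.7 ± 1.47 and 93.9 ± 1.74 CPM (SD, n = 4 per group), a rise of 12.2% and a log2 fold change of 0.17 (standard error 0.03, 95% interval 0.11 to 0.22). It was 0.18 without control replicate 1 and A20 siRNA replicate 2, and between 0.15 and 0.18 with each library left out in turn. In GENCODE 44 some exons of CLDN12 share 347 of 6708 exonic bases with GTPBP10 on the same strand, where a read cannot be assigned by position alone. The same holds for 531 bases shared with PTTG1IP2, 371 with ENSG00000273299 and 201 with CDK14. PTTG1IP2 and ENSG00000273299 had no count in any library, and CDK14 had at most 2. The level of GTPBP10 was 83.7 ± 2.57 CPM in the controls and 84.8 ± 1.53 CPM after A20 siRNA (SD, n = 4 per group), and its groups overlapped.

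CLDN15 (chromosome 7, 101232092 to 101238820), the cation pore claudin, was a far rarer transcript with 109 to 218 reads per library. CPM values were 5.62, 5.09, 4.71 and 4.61 in control replicates 1 to 4 and 6.36, 5.66, 6.22 and 6.39 in the A20 siRNA replicates. The groups were separated only narrowly, because the highest control, replicate 1, lay just under the lowest A20 siRNA library, replicate 2. These are the 2 libraries whose trend with exonic length set them apart, and the part of that trend in the values of CLDN15 was not tested beyond the length correction below. The means of 5.01 ± 0.459 and 6.16 ± 0.342 CPM (SD, n = 4 per group) gave a log2 fold change of 0.29 (standard error 0.09, 95% interval 0.11 to 0.47). CLDN15 was not called with all 8 libraries. Its log2 fold change was 0.35 without control replicate 1, 0.39 without both of these libraries, and 0.31 after each library was corrected for exonic length and GC content.

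The 3 members outside the claudin family showed no such separation. OCLN (chromosome 5, 69492292 to 69558104) had 2.99, 2.78, 2.39 and 2.62 CPM with control siRNA and 2.92, 2.54, 2.33 and 3.01 CPM with A20 siRNA. The means were 2.70 ± 0.254 and 2.70 ± 0.317 CPM (SD, n = 4 per group), and the log2 fold change was 0.00 within an interval of -0.26 to 0.26. With 57 to 100 reads per library, differences inside that interval could not be seen, and its unique count is uncertain because the pseudogene copy OCLNP1 may share reads. The direction of so small a value was unstable, from -0.06 to 0.06 with each library left out in turn and 0.09 without control replicate 1 and A20 siRNA replicate 2.

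TJP1 (chromosome 15, 29699367 to 29968915) was measured more tightly, from 1191 to 1843 reads per library. Its values were 59.5, 56.3, 55.7 and 54.2 CPM in the controls and 53.7, 56.3, 54.6 and 56.0 CPM after A20 siRNA. Only control replicate 1 lay above the range of the A20 siRNA libraries. The log2 fold change was -0.04 (standard error 0.03), and its 95% interval from -0.11 to 0.03 included 0. It was -0.01 without control replicate 1.

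F11R (chromosome 1, 160995211 to 161021343) had 12.7, 13.0, 12.4 and 12.1 CPM with control siRNA and 12.9, 12.9, 11.3 and 13.0 CPM with A20 siRNA. A20 siRNA replicate 3 was the lowest of all 8, and the other 3 A20 siRNA libraries lay within the control range or just above it. The means were 12.5 ± 0.373 and 12.5 ± 0.809 CPM (SD, n = 4 per group), with a log2 fold change of 0.00 and an interval of -0.12 to 0.12. F11R shares 1853 of its 5061 exonic bases with the readthrough gene ENSG00000270149 on the same strand in GENCODE 44, and reads there may have been left out of its unique count. That readthrough gene received between 0 and 4 reads per library.

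**Figure D3:**
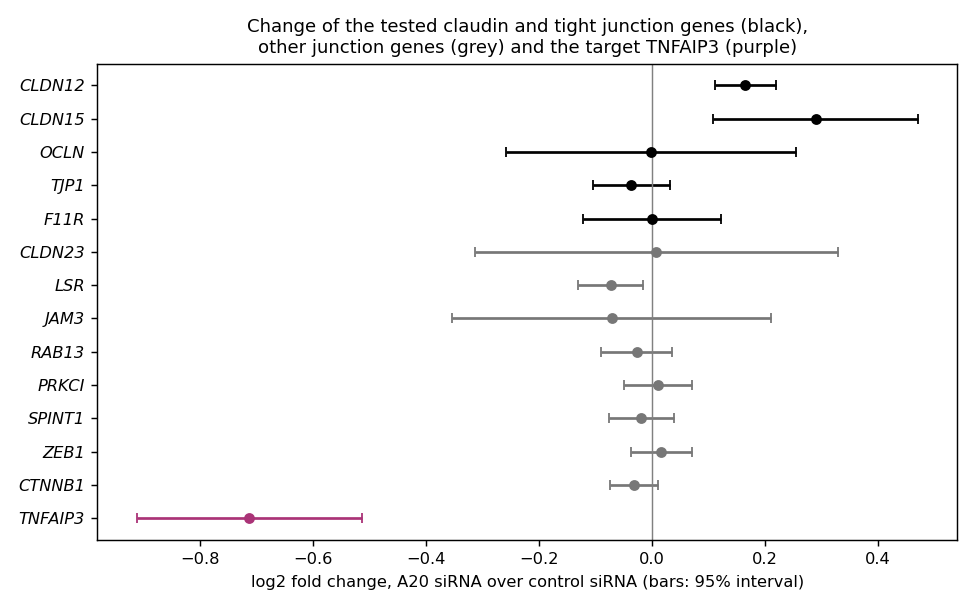
Log2 fold change of A20 siRNA over control siRNA with its 95% interval, for the 5 tested members in black, for CLDN23 and the gene with the highest mean level per length of each other junction list in grey, and for TNFAIP3 in purple. CLDN12 (0.17) and CLDN15 (0.29) lie to the right of 0, the intervals of OCLN, TJP1 and F11R include 0, and TNFAIP3 lies at -0.71.

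Over 18 alternative ways of processing the same counts, the log2 fold changes of CLDN12 and CLDN15 stayed above 0 and that of TJP1 below it, while those of OCLN and F11R fell on either side. These ranges describe the values by which the genes were chosen and give them no further support.

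**Figure D4:**
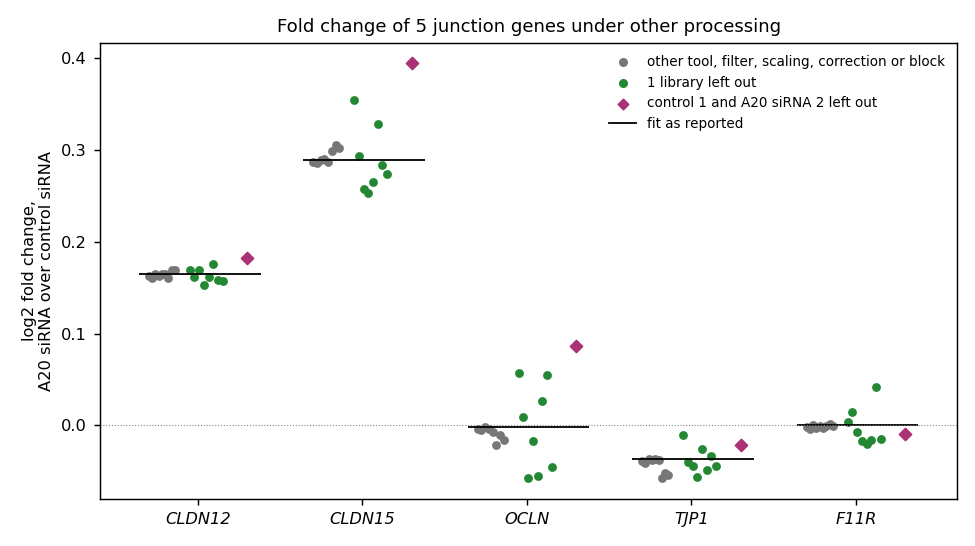
Log2 fold change of the 5 tested members as reported (line), with other tools, filters, scalings, corrections or the replicate block (grey), with 1 library left out (green) and with control replicate 1 and A20 siRNA replicate 2 left out (purple). CLDN12 stays between 0.15 and 0.18, CLDN15 spreads from 0.25 to 0.39, and OCLN and F11R fall on both sides of 0. The DESeq2 values of CLDN15 and OCLN, which had no adjusted p-value, are not drawn.

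The libraries in which CLDN12 and CLDN15 were high were compared with all other tested genes by Pearson's correlation of log2 CPM over the 8 samples. The genes with a pattern most like that of CLDN12 were ENSG00000187951 (r = 0.978), REV3L (r = 0.974) and CXCL8 (r = 0.974), and those most like CLDN15 were HERC2P3 (r = 0.994), ZNF215 (r = 0.983) and CHD9 (r = 0.979). After the group means were taken out, the 3 likenesses of CLDN12 were between 0.62 and 0.75 and those of CLDN15 between 0.92 and 0.98. The order of replicates within the groups thus contributed more to the likenesses of CLDN15 than to those of CLDN12. These are descriptions over 8 samples that share the library and group differences, picked from all tested genes.

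The rest of the junction was read from 99 further genes listed by role, of which 55 passed the filter and 19 had no count in any library. By edgeR none of the 55 was called at an adjusted p-value under 0.05, against 1.25% of all tested genes. Nothing is read from a count so near that share, here or for the lists below. At an unadjusted p-value under 0.05 there were 10 (6 higher and 4 lower after A20 siRNA), or 18.2%, against 16.2% of all tested genes. The groups did not overlap for 5 of the 55, against 7.61% of all tested genes. DESeq2 called 1, the kinase gene WNK1, and limma-voom none. Of all genes DESeq2 called 83 higher and 122 lower, and limma-voom 81 and 84. For CLDN23, 1 of the 55, DESeq2 gave no adjusted p-value, so not all 55 could be called by it. The median log2 fold change of the 55 was 0.01, with 29 above 0 and 26 below. WNK1 was singled out after its values were seen.

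Among strand and tricellular proteins, 4 of 5 genes passed the filter, including MARVELD2 (tricellulin) and LSR, which recruits it to 3-cell contacts. LSR was the most abundant at 22.6 CPM per kb, with values from 66.7 to 67.7 CPM in the controls and from 62.8 to 66.2 CPM after A20 siRNA. Its groups did not overlap, but the log2 fold change of -0.07 (SE 0.03) did not pass (adjusted p = 0.185). Of the other 18 claudins only CLDN23 passed the filter, at 1.81 ± 0.349 CPM in the controls and 1.82 ± 0.137 CPM after A20 siRNA (SD, n = 4 per group; log2 fold change 0.01, SE 0.15; adjusted p = 0.988). Of 7 further immunoglobulin-type adhesion molecules JAM3 and ESAM passed, and their ranges of level per length overlapped. JAM3 had a log2 fold change of -0.07 (SE 0.13; adjusted p = 0.845).

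The cytoplasmic side was better represented. Of 17 plaque genes 14 passed, led by RAB13, a small GTPase of junction assembly, at 41.7 CPM per kb (log2 fold change -0.03, SE 0.03; adjusted p = 0.713). TJP3 and CGNL1 did not pass, and MPDZ had no count in any library. Of 12 polarity genes 9 passed, and the atypical protein kinase C gene PRKCI led them at 22.6 CPM per kb (log2 fold change 0.01, SE 0.03; adjusted p = 0.902). CRB3, the epithelial Crumbs protein that anchors the PALS1 and PATJ complex at the membrane, was counted 1 to 6 times per library and did not pass, whereas PALS1 and PATJ did. CGNL1, MPDZ, TJP3 and CRB3 were picked out after their values were seen.

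**Figure D5:**
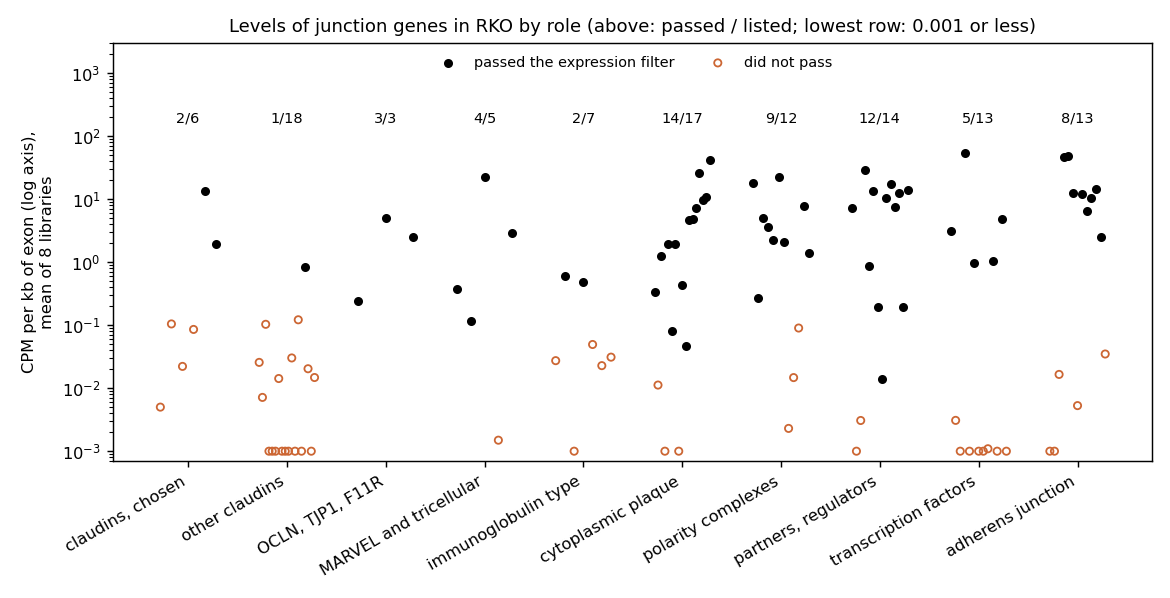
Mean level over the 8 libraries, in CPM per kilobase of exon on a log axis, of each listed junction gene by role (filled, passed the expression filter; open, did not), with the number that passed over the number listed above each group. The cytoplasmic plaque (14 of 17) and the polarity complexes (9 of 12) were mostly transcribed, whereas 3 of the 24 claudins were.

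Claudin partners and regulators passed in 12 of 14 cases. SPINT1, an inhibitor of membrane serine proteases, was the most abundant at 28.8 CPM per kb (log2 fold change -0.02, SE 0.03; adjusted p = 0.788), while EPCAM, which stabilises CLDN7 and CLDN1, was present at 17.7 ± 0.669 CPM in the controls and 17.2 ± 0.670 CPM after A20 siRNA (SD, n = 4 per group). The genes closest to the threshold were WNK1, which phosphorylates transport and junction proteins, at a log2 fold change of 0.11 (SE 0.03; adjusted p = 0.0558), and the adherens junction scaffold AFDN, at 0.12 (SE 0.03; adjusted p = 0.0552). Both were named after their values were seen. Without control replicate 1 their log2 fold changes were 0.13 and 0.15, and both passed (adjusted p = 0.00205 and 0.00332). Each passed under 5 of the 18 alternatives. Neither passed when the libraries were corrected for exonic length, alone or together with GC content, without the replicate block. WNK1 and AFDN have 17280 and 13749 exonic bases, and the part of the length trend in their values was not tested further.

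Transcription factors known to act on claudin genes ranged from abundant to undetected. Of 13 listed, ZEB1, SNAI1, GRHL1, OVOL2 and CDX2 passed the filter. ZEB1, a repressor of epithelial genes, was the most abundant at 54.4 CPM per kb, 4.11 times the level per length of CLDN12, with 467.3 ± 17.0 CPM in the controls and 472.9 ± 10.7 CPM after A20 siRNA (SD, n = 4 per group). Its log2 fold change was 0.02 (SE 0.03; adjusted p = 0.803). GRHL2, HNF4A and CDX1, activators of epithelial genes, had no count in any library, nor had the repressors ZEB2 and TWIST1, and ELF3 had a single read in all. These were named after their values were seen. None of the 5 that passed was called in either direction.

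In the adherens junction, the neighbouring contact built on cadherins, 8 of 13 genes passed. CTNNB1, which encodes beta-catenin, had the highest mean, 47.6 CPM per kb (log2 fold change -0.03, SE 0.02; adjusted p = 0.468). The alpha-catenin gene CTNNA1 averaged 46.6 CPM per kb, and as the ranges over the 8 libraries overlapped, the pair cannot be put in order. The cadherin genes CDH1 and CDH2 had no count in any library, and CDH3 had 1 to 5 reads. No gene of this list was called.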

How the data were processed

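RNAseq of 8 RKO samples was analysed, grouped by their labels as control siRNA (4) or A20 siRNA (4). The authors trimmed the reads with Trimmomatic, mapped them to GRCh38.p7 with STAR and deposited raw counts, the uniquely mapping reads of each gene in a GENCODE annotation. Tool versions, the GENCODE release and the strand setting are not given in the sources used here. Without strand, reads from overlapping antisense genes cannot be told apart.

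Counts were tested with edgeR 4.0.16 (R 4.3.3, limma 3.58.1): filterByExpr with a minimum count of 10 (13412 genes kept), TMM, quasi-likelihood test without covariates, Benjamini-Hochberg adjustment and a threshold of 0.05. Each standard error was the absolute log2 fold change over the root of its F statistic. Symbols, positions and lengths came from GENCODE 44, which matched 56948 of 57992 genes, and 99.3% of tested genes had a length. CPM per kb divides CPM by the length of all exons of a gene. The pipeline was tested on counts simulated without a length trend between libraries, so that test does not cover the trend seen here. The genes and lists were chosen with earlier results of these data known. Named were all 9 genes, claudins passing the filter, genes called in each list and the gene with the highest mean level per length of each. Alternatives were RLE scaling, no filter, 10 or more counts required in all samples, DESeq2 1.42.0, limma-voom, a block on the replicate number, loess corrections (span 0.5) for the length of the exons, alone or together with the GC content of the longest transcript, the joint correction plus the block, and each library left out. Leaving out control replicate 1 and A20 siRNA replicate 2 together was added after seeing the data. Western blots, luciferase assays and qPCR were not analysed here. No replicate pair agreed within sampling noise (chi-square per degree of freedom 1.32 to 3.71).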

Additional observations from a re-analysis of the deposited data

Results flagged for a closer look

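For each of the 14 named genes that passed the filter, both groups of 4 libraries were searched for 1 library lying apart. Of these 28 groups 4 had one, where chance gives 1.4. For F11R, A20 siRNA replicate 3 lay below the other A20 siRNA libraries with a gap of 0.948 of their range, at 11.3 CPM where they had 12.9 to 13.0. For ZEB1, control replicate 1 lay above the other controls by 0.833 of the range, at 492.5 CPM where they had 456.8 to 462.8. For CTNNB1, A20 siRNA replicate 2 lay above its group by 0.947 of the range, at 560.6 CPM where the others had 550.6 to 551.1. For TNFAIP3, A20 siRNA replicate 2 lay below its group by 0.847 of the range, at 3.01 CPM where the others had 3.40 to 3.47.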

How the results depend on the processing

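TNFAIP3 kept its direction and its call under every alternative that gave an adjusted p-value, with log2 fold changes from -0.77 to -0.67 with each library left out. DESeq2 gave it none. CLDN12 was higher and called under all 18 alternatives. CLDN15 was higher under all 18 and called under 2 of the 17 that gave an adjusted p-value (DESeq2 gave none). Both were chosen on this comparison, so these calls support nothing. With 85 genes higher and 82 lower as reported, 314 and 310 were called when no low counts were filtered, 262 and 212 under the replicate block, 243 and 220 under this block plus the correction for length and GC, 614 and 483 without control replicate 1 and A20 siRNA replicate 2, and 131 lower with the length correction. With each library left out they ranged from 6 to 567 higher and from 6 to 430 lower, highest without control replicate 1 and lowest without A20 siRNA replicate 3. What causes these shifts was not tested. Of the 5 members tested, 1 was called, and 1 to 2 with each library left out. The 2 came without control replicate 1, where 567 of all tested genes were called higher and 430 lower. Without both libraries named above the number of members called was also 2, beside 614 and 483 of all tested genes. Of the other junction genes 0 were called, against 2 higher without a filter, 1 with DESeq2, 2 with the block (WNK1 and AFDN), 1 with the block and correction, 0 to 3 with each library left out and 4 without both libraries (WNK1, AFDN, TJAP1 and ROCK2). Counts of junction genes are to be read beside those over all tested genes, and nothing is read from them. In the order of levels per length 6 neighbouring pairs were separate, 4 with the longest transcript as length and 6 to 7 with each library left out. Deviations of same-numbered samples from their group means correlated by -0.01 to 0.084 across genes, and 4 of 8 libraries correlated best with their own number. The shared numbers were not taken as pairs in the fit as reported, but these values do not settle whether the samples were paired. Depth limits statements on CLDN1, CLDN3, CLDN4 and CLDN7 most, with at most 10 reads per library.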
